A study of Mus musculus with 8 samples.

Results

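The genes described here encode the translation initiation and elongation factors, the soluble proteins that start and extend protein synthesis on the cytoplasmic ribosome. They were chosen by gene symbol: protein-coding genes of the deposited table with reads whose symbol starts with Eif followed by 1 to 6 or with Eef1 or Eef2. This gave 57 genes of 46983 in the table and of 17331 protein-coding genes with reads. The rule used no expression difference. It left out 6 protein-coding genes by name (the eIF2 alpha kinases and the Eif2s3 genes), Eif4e1b because it had no reads, and 8 genes that are not protein-coding. Because it goes by symbol, the set includes a few relatives that are not core factors, such as Eif1ad and Eef1e1, a scaffold protein of the multi-synthetase complex.

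Translation starts when eIF2 brings the initiator tRNA to the small ribosomal subunit, eIF3 and eIF1 keep that subunit open, and the eIF4 proteins load it at the capped end of the mRNA. The complex then scans to a start codon, eIF5 and eIF5B let the large subunit join, and eEF1 and eEF2 carry the ribosome along the message. Phosphorylation of eIF2 by stress kinases, of the eIF4E-binding proteins by mTORC1 and of eEF2 by its kinase slows or speeds these steps in most tissues. Microglia, the resident macrophages of the brain, express many secreted and lysosomal proteins, and Qk encodes the RNA-binding protein quaking, which acts on splicing, stability and translation of mRNAs.

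Sequenced total RNA came from corpus callosum microglia of FvB/C57BL6 hybrid mice. All mice carried Cx3cr1-CreER, a tamoxifen-inducible Cre driven by a gene of microglia and other mononuclear phagocytes, together with loxP-flanked Qk. Qk-KO mice are labelled QKLoxP/LoxP, with both alleles flanked, and WT mice QKLoxP/+, with 1 flanked allele, so that the WT mice also carried Cre and a flanked allele. Tamoxifen was given at 8 weeks of age, and both groups then received 0.2% cuprizone, a copper chelator that causes loss of myelin, for 6 weeks. No group without cuprizone is among these libraries. There were 4 libraries named Qk-KO and 4 named WT. The labels leave unsaid whether the 4 are different animals; p-values then reflect library-to-library spread alone, which could be technical.

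Several facts about the libraries bear on what follows. The genotype field of the labels goes against the sample name in 4 of the 8 libraries: named Qk-KO 1 and 3 carry the field WT, and named WT 2 and 3 carry the field Qk-KO. The sample names are used here because the groups are titled by them, and the grouping by genotype field is given beside the results. Qk itself averaged 15.49 ± 0.18 in named Qk-KO and 15.41 ± 0.059 in named WT libraries (regularized log2 values, SD, n = 4 each), and the difference did not pass by limma (adjusted p = 0.819). The gene-level value cannot show whether the flanked part of Qk was deleted. Rough library totals were 43900000 to 58500000 reads in named Qk-KO and 59700000 to 69700000 reads in named WT libraries, without overlap. The mean over 8 microglia markers was 15.78 to 16.05 in named Qk-KO and 16.15 to 16.31 in named WT libraries, also without overlap, and all 8 genes had reads; the part of depth and of these markers in the results was not tested. The 2 libraries numbered 4, 1 in each group, had the highest oligodendrocyte markers: the mean over 6 genes was 9.21 in named Qk-KO 4 and 9.19 in named WT 4, with 6.55 to 6.87 in the other named Qk-KO and 7.17 to 7.25 in the other named WT libraries. In such bulk samples, fewer cells of a type and less RNA per cell cannot be told apart.

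Levels among the factors spanned more than 3 orders of magnitude. To compare genes, the authors' mean normalized signal was divided by exon length in kb. It was then scaled in proportion to the sum over all genes, in the manner of TPM values. Exon length here counts all annotated exons of a gene, merged. This can exceed the length of the mRNA expressed, so genes compare only roughly on this scale. On this scale Eef1a1, which encodes the GTPase that delivers aminoacyl-tRNAs to the ribosome, stood at 5263. Eef2, whose product moves the ribosome by a codon, followed at 1172. The next were the eEF1B subunit genes Eef1g at 156 and Eef1b2 at 148, then Eif4b at 145 and the helicase gene Eif4a1 at 144. These 4 values are close, and their order was not tested. Before division by length, the 57 genes held 2.0% of the signal of all protein-coding genes, and Eef1a1 alone made up 52.5% of that share and Eef2 15.6%.

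**Figure D1:**
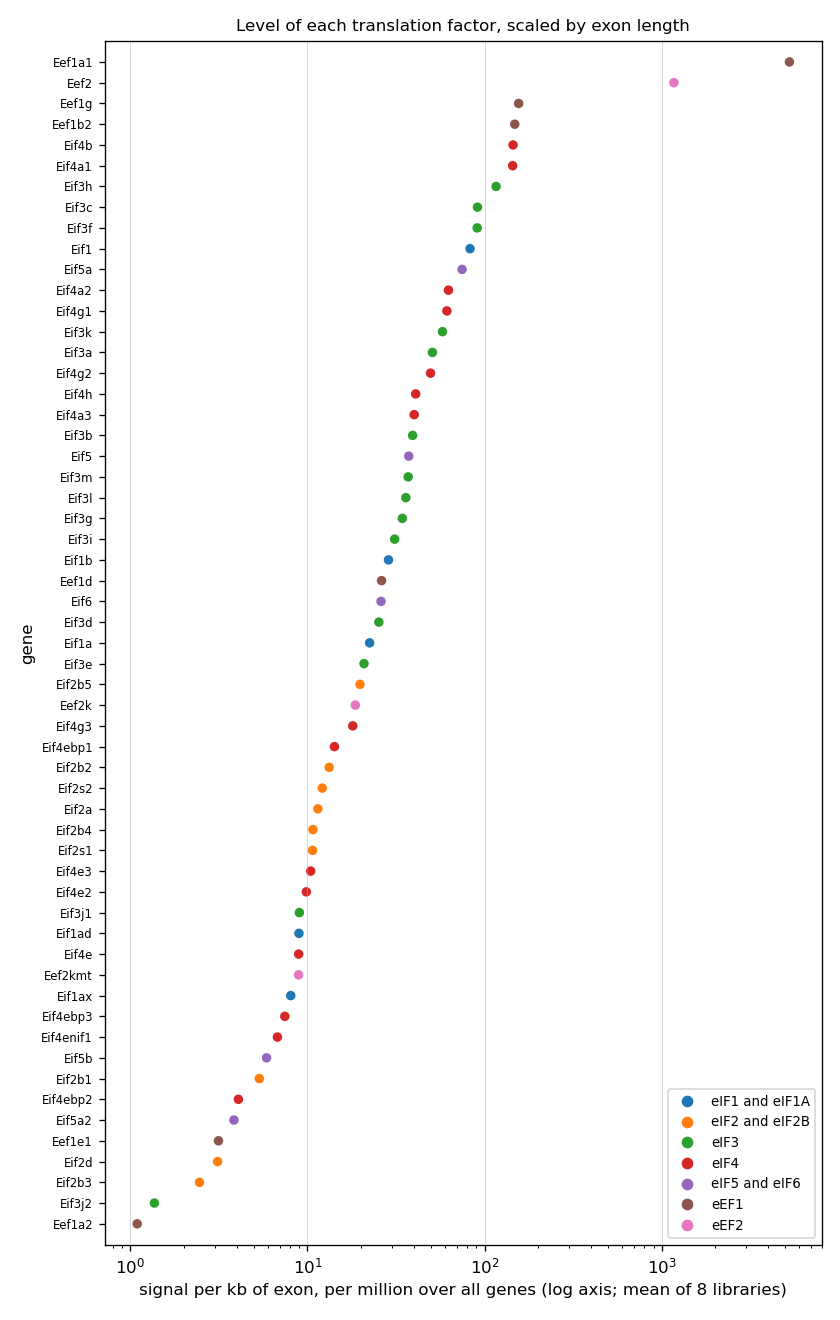
Mean level of each of the 57 translation factor genes over the 8 libraries, as signal per kb of exon on the TPM-like scale, on a log axis. Colours give the class of factor; Eef1a1 at 5263 and Eef2 at 1172 stand to the right of all others, and Eef1a2 at 1.09 is the lowest.

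Some paralogs were far apart in level and others were close. Eef1a2, which in adult mice replaces Eef1a1 in neurons and muscle, stood at 1.09. Of the eIF4A helicases, Eif4a1 stood at 144 and Eif4a2 at 62.6. Of the eIF1 pair, Eif1 was at 82.8 and Eif1b at 28.7, and of the eIF5A pair, Eif5a was at 74.7 and Eif5a2 at 3.85. The scanning factor genes Eif1a and Eif1ax were at 22.5 and 8.05. The eIF4E genes lay close together on this scale, with Eif4e at 8.92, Eif4e2 at 9.86 and Eif4e3 at 10.4. Before division by length their mean signals were 2182, 3008 and 1069. Eif4g1 at 61.3 and Eif4g2 at 49.6 were also close, while Eif4g3 was at 18.0. The subunits of eIF3, which is assembled from 1 copy of each, did not share a level. From Eif3h at 116, Eif3c at 91.2 and Eif3f at 90.9, the values ran down to Eif3e at 20.9 and the loosely bound subunit gene Eif3j1 at 9.0. The order depends on exon length, which is 1612 bases for Eif3h and 6719 for Eif3e. Before division their mean signals were 7628 and 5708, with 18061 for Eif3a and 2137 for Eif3j1. The eIF2B exchange factor genes were low, from Eif2b5 at 19.8 to Eif2b3 at 2.46.

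The factors varied little among libraries. The median SD of a gene over the 8 libraries was 0.10 for the 57 genes, on the regularized log2 scale. It was 0.14 for protein-coding genes of at least 1 CPM (a count scaled to a common library total) and 0.19 for all genes tested. These sets were not matched for level: their median signals were 3461, 1254 and 163. The part of level in the lower SD was not tested. All 57 were at or above 1 CPM, and all entered the fit. The difference between named Qk-KO and named WT libraries lay within 0.1 of 0 for 37 of the 57. The median absolute difference was 0.065 for the 57, 0.092 for protein-coding genes of at least 1 CPM and 0.11 for all genes tested. The 95% interval of the difference, unadjusted and on the regularized scale, lay wholly between -0.5 and 0.5 for 53. Larger changes between the named groups were outside the interval for these genes. The shares of all genes within these bounds were not counted.

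**Figure D2:**
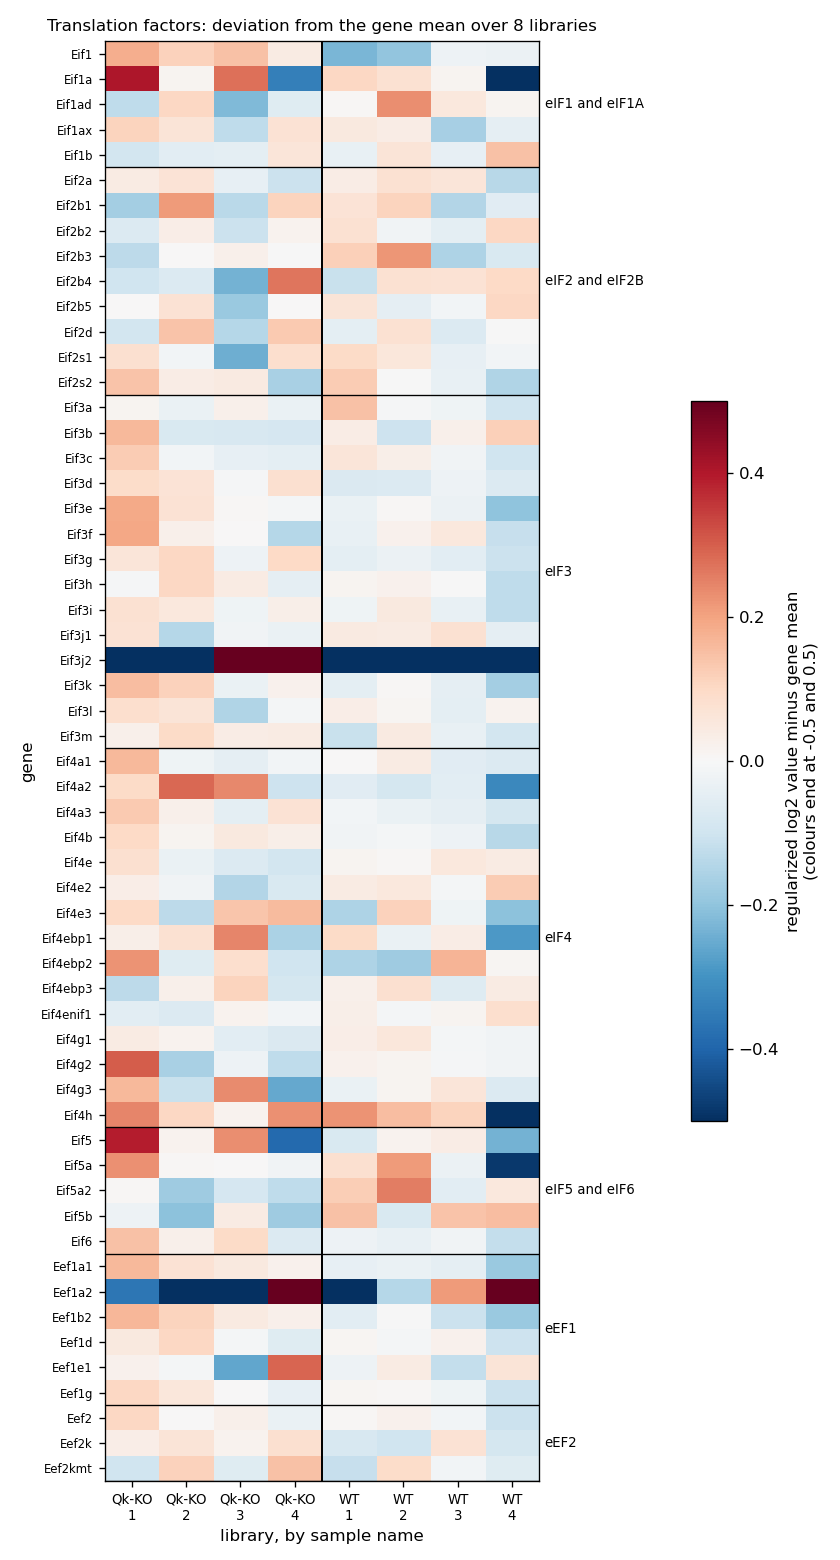
Regularized log2 value of each of the 57 genes in each library minus the gene's mean over the 8 libraries, with named Qk-KO libraries left of named WT libraries and genes grouped by class. The column of named Qk-KO 1 is mostly red, with 43 of 57 genes above their own mean. That of named WT 4 is mostly blue, with 16 of 57 above. The shares over all genes were not counted. Eif3j2 and Eef1a2 run past the ends of the colour scale.

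No translation factor passed the test between the named groups. In the limma fit over 22546 genes, 0 of 57 had an adjusted p under 0.05, where 0.00444% of all genes tested did. In the authors' deposited table, 0 of the 56 with an adjusted p were under 0.05, where 1.22% of 14150 genes were. At an unadjusted p under 0.05 there were 8 of 57 by limma, with a background of 8.26% of all genes tested and 10.3% of those of at least 1 CPM. Of the 8, 6 had higher means in the named Qk-KO libraries (3.76% of all genes tested) and 2 had lower means (4.5% of all genes tested). By the authors' deposited table, 8 of 56 were under an unadjusted 0.05, against a background of 6.49%. The member with the smallest adjusted p was Eif1 in both, at 0.426 by limma and 0.0752 in the authors' deposited table.

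The median difference over the 57 genes was 0.041 and that over all genes tested was -0.0044 (log2, named Qk-KO minus named WT). The difference was positive for 36 of 57, with 48.8% of all genes tested and 52.0% of those of at least 1 CPM positive. In 7 genes every named Qk-KO library was above every named WT library, where 3.04% of all genes tested and 3.83% of those of at least 1 CPM showed this: Eef1a1, Eef1b2, Eif1, Eif3d, Eif3g, Eif3j2 and Eif4b. Eif3j2 was near its lowest value in 6 libraries, where its values ran in the reverse order of the size factors (relative depths), from 1.67 at 0.898 in named Qk-KO 1 to 1.43 at 1.26 in named WT 1, so its place in the count carries no weight; 6 genes are left without it. In 0 genes was every named Qk-KO library below every named WT library, where 2.7% of all genes tested and 3.13% of those of at least 1 CPM were. Without the 2 libraries numbered 4, 9 genes were separated upwards and 1 downwards, beside 9.17% and 10.4% of all genes tested. Without named Qk-KO 1, 7 were separated upwards and 4 downwards, beside 4.71% and 4.58% of all genes tested. The upward counts of 9 and 7 still include Eif3j2, whose place carries no weight there either. Leaving out named Qk-KO 1 gave a median of 0.018, leaving out named Qk-KO 4 gave 0.067, and leaving out named WT 4 gave 0.013.

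**Figure D3:**
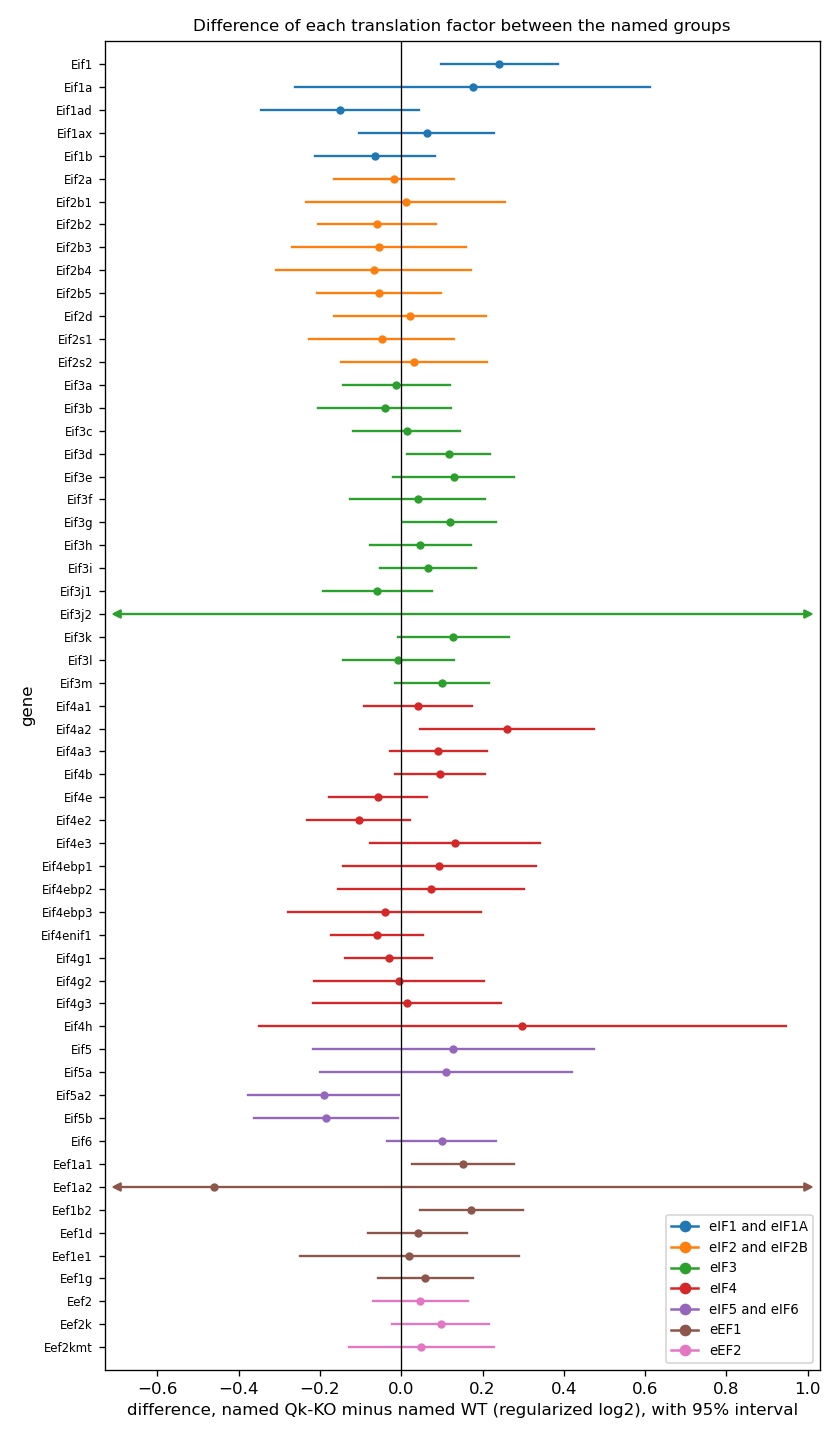
Difference of each of the 57 genes between named Qk-KO and named WT libraries (points, regularized log2, named Qk-KO minus named WT) with the 95% interval of the limma fit (lines), coloured by class. The intervals of 8 genes lie clear of 0 before adjustment; those of Eif3j2 and Eef1a2 run past the axis (arrows), and the difference of Eif3j2, 3.55, is off the axis.

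Among the eIF1 and eIF1A genes, Eif1 (chr11:100319885-100322096, plus strand, mm10) had the smallest p. It encodes the small factor that keeps the scanning ribosome from accepting a wrong start codon. Its values were 12.96, 12.90, 12.93 and 12.82 in named Qk-KO 1 to 4, against 12.55, 12.58, 12.75 and 12.75 in named WT 1 to 4. The groups did not overlap, and named WT 1 and 2 were the lowest. The difference was 0.24 (95% interval 0.099 to 0.38), a fold of 1.18, and it did not pass by limma (adjusted p = 0.426). Its paralog Eif1b, whose coding sequence is 81.3% identical, averaged 10.33 ± 0.066 in named Qk-KO and 10.39 ± 0.089 in named WT libraries (SD, n = 4 each), with overlap. The coding sequences of the pair share no stretch of 50 identical bases.

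The scanning factor gene Eif1a was variable in both groups, at 12.27, 11.88, 12.14 and 11.53 in named Qk-KO 1 to 4 and 11.97, 11.94, 11.88 and 11.32 in named WT 1 to 4. The libraries numbered 4 were the lowest of each group. Its X-linked relative Eif1ax averaged 10.78 ± 0.11 in named Qk-KO and 10.72 ± 0.099 in named WT libraries (SD, n = 4 each). Eif1ad, which contains an eIF1A domain, had a difference of -0.15 (95% interval -0.34 to 0.043).

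The eIF2 and eIF2B genes, which supply the initiator tRNA and recharge eIF2 with GTP, gave small differences. Of the 9, 3 had a positive difference, and all lay between -0.068 and 0.031, with a median of -0.048. Eif2s1, whose product is the alpha subunit phosphorylated by the stress kinases, averaged 11.05 ± 0.15 in named Qk-KO and 11.09 ± 0.063 in named WT libraries (SD, n = 4 each). Eif2a, for a separate carrier of initiator tRNA, had a difference of -0.018 (95% interval -0.17 to 0.13). Eif2s2, for the beta subunit, averaged 11.72 ± 0.13 in named Qk-KO and 11.68 ± 0.11 in named WT libraries. The most variable was the exchange factor subunit gene Eif2b4, from 9.91 to 10.41 in named Qk-KO and from 10.03 to 10.24 in named WT libraries.

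Of the 14 eIF3 genes, 10 had a positive difference, and without Eif3j2 the median of the other 13 was 0.047. Eif3d (chr15:77958998-77970813, minus strand), whose human counterpart can itself bind the mRNA cap, was at 12.41, 12.39, 12.31 and 12.40 in named Qk-KO 1 to 4, against 12.25, 12.25, 12.29 and 12.25 in named WT 1 to 4. The groups did not overlap, though named Qk-KO 3 and named WT 3 were close. The difference was 0.12 (95% interval 0.015 to 0.22; limma adjusted p = 0.561). An antisense gene, Gm17638, shares 43.3% of the exonic bases of Eif3d, and since the sources used here do not say whether counting used strand, reads of the pair cannot be told apart. Eif3g (chr9:20894349-20898623, minus strand), an RNA-binding subunit, was at 11.50, 11.54, 11.41 and 11.54 in named Qk-KO 1 to 4, against 11.39, 11.41, 11.38 and 11.33 in named WT 1 to 4. The groups were separated, though by less than the rounding of these values, and the difference was 0.12 (95% interval 0.0055 to 0.23; limma adjusted p = 0.588). The scaffold subunits gave small values: the difference was -0.012 (95% interval -0.14 to 0.12) for Eif3a and 0.013 (95% interval -0.12 to 0.14) for Eif3c.

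Eif3j2 behaved unlike any other factor. It was at 8.58 in named Qk-KO 3 and 8.29 in named Qk-KO 4, against 1.67 and 1.601 in named Qk-KO 1 and 2 and 1.43 to 1.57 in the 4 named WT libraries. The gap between the 2 high libraries and the next was 6.62 on the log2 scale, and it was the only factor with a gap over 5; 30 genes with reads had one, of which 12 were of the mitochondrial genome. The 2 high libraries carry different genotype fields. The difference, 3.55, had a 95% interval of -0.77 to 7.87 (limma adjusted p = 0.662), and the authors' deposited table gives a log2 fold change of 0.32 with no p. Its paralog Eif3j1 showed no such pattern, at 11.13, 10.92, 11.04 and 11.03 in named Qk-KO 1 to 4 and 11.11, 11.10, 11.14 and 11.02 in named WT 1 to 4. The longest open reading frames of the pair were 99.2% identical, and 90.8% of the 50-base stretches of Eif3j2 also occur in Eif3j1, so the level of either is uncertain. The part of read assignment in this pattern was not tested.

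Among the eIF4 genes, which recruit the mRNA, the helicase gene Eif4a2 (chr16:23107444-23114136, plus strand) had the smallest p. It was at 13.81, 14.00, 13.96 and 13.62 in named Qk-KO 1 to 4, against 13.66, 13.63, 13.66 and 13.40 in named WT 1 to 4. The groups overlapped because named Qk-KO 4 was low, and each library numbered 4 was the lowest of its group. The difference was 0.26 (95% interval 0.045 to 0.47; limma adjusted p = 0.527), a fold of 1.197. Its paralog Eif4a1, with 77.8% identical coding bases, differed by 0.041 (95% interval -0.091 to 0.17). Eif4b (chr15:102073773-102097173, plus strand), whose product stimulates the helicase, was at 14.78, 14.70, 14.73 and 14.71 in named Qk-KO 1 to 4, against 14.67, 14.67, 14.66 and 14.55 in named WT 1 to 4. The groups did not overlap, and the difference was 0.096 (95% interval -0.014 to 0.21; limma adjusted p = 0.654).

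The 3 eIF4E genes, for cap-binding proteins, had differences of either sign. Eif4e averaged 11.06 ± 0.076 in named Qk-KO and 11.12 ± 0.023 in named WT libraries (SD, n = 4 each), a difference of -0.058 (95% interval -0.18 to 0.064). Eif4e2, whose product binds caps without recruiting eIF4G, averaged 11.50 ± 0.076 in named Qk-KO and 11.61 ± 0.056 in named WT libraries (SD, n = 4 each), a difference of -0.10 (95% interval -0.23 to 0.022). Eif4e3 averaged 10.12 ± 0.13 in named Qk-KO and 9.99 ± 0.14 in named WT libraries (SD, n = 4 each), a difference of 0.13 (95% interval -0.078 to 0.34). Eif4ebp1, for the best known eIF4E-binding repressor, had a difference of 0.094 (95% interval -0.14 to 0.33). The large scaffold genes were near 0, at -0.031 (95% interval -0.14 to 0.077) for Eif4g1 and 0.014 (95% interval -0.22 to 0.25) for Eif4g3. Eif4h, a relative of Eif4b, had a difference of 0.30 that came from 1 library: it was at 13.14 to 13.37 in named Qk-KO libraries, against 12.03 in named WT 4 and 13.23 to 13.35 in the other named WT libraries. Without named WT 4 the difference was -0.014.

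The eIF5 and eIF6 class held both genes that were lower in named Qk-KO at an unadjusted p under 0.05. Eif5b (chr1:37998010-38055579, plus strand), for the GTPase that joins the ribosomal subunits, was at 11.16, 10.98, 11.22 and 11.003 in named Qk-KO 1 to 4, against 11.33, 11.10, 11.33 and 11.34 in named WT 1 to 4. Only named WT 2 fell among the named Qk-KO values, and the difference was -0.18 (95% interval -0.36 to -0.0081; limma adjusted p = 0.588). Eif5a2 (chr3:28781276-28798846, plus strand), the minor gene for the hypusine-containing factor eIF5A, was at 9.62, 9.44, 9.53 and 9.49 in named Qk-KO 1 to 4, against 9.74, 9.87, 9.56 and 9.67 in named WT 1 to 4. Named Qk-KO 1 was above named WT 3, so the groups overlapped, and the difference was -0.19 (95% interval -0.38 to -0.0060; limma adjusted p = 0.594). The major gene Eif5a, with 72.7% identical coding bases, was at 12.79 to 13.03 in named Qk-KO libraries, against 12.32 in named WT 4 and 12.77 to 13.02 in the other named WT libraries. Eif5, whose product triggers GTP hydrolysis by eIF2, ranged from 12.93 to 13.71 in named Qk-KO and from 13.08 to 13.36 in named WT libraries, with the libraries numbered 4 lowest in each group. Eif6, whose product keeps free large subunits from joining small ones, differed by 0.099 (95% interval -0.034 to 0.23).

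Among the eEF1 genes, Eef1a1 (chr9:78478449-78489151, minus strand) was at 19.19, 19.10, 19.07 and 19.04 in named Qk-KO 1 to 4, against 18.98, 18.99, 18.98 and 18.84 in named WT 1 to 4. The groups did not overlap, and the difference was 0.15 (95% interval 0.027 to 0.28; limma adjusted p = 0.527), a fold of 1.11. This direction depended on the scaling: the difference was -0.058 after quantile normalization and 0.23 with median-centred libraries. Eef1b2 (chr1:63176825-63180486, plus strand), for the subunit that exchanges GDP for GTP on eEF1A, was at 14.06, 14.00, 13.94 and 13.92 in named Qk-KO 1 to 4, against 13.84, 13.89, 13.79 and 13.71 in named WT 1 to 4. The groups did not overlap, and the difference was 0.17 (95% interval 0.045 to 0.30; limma adjusted p = 0.485). The companion subunit genes Eef1g and Eef1d differed by 0.059 (95% interval -0.058 to 0.18) and 0.041 (95% interval -0.081 to 0.16).

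**Figure D4:**
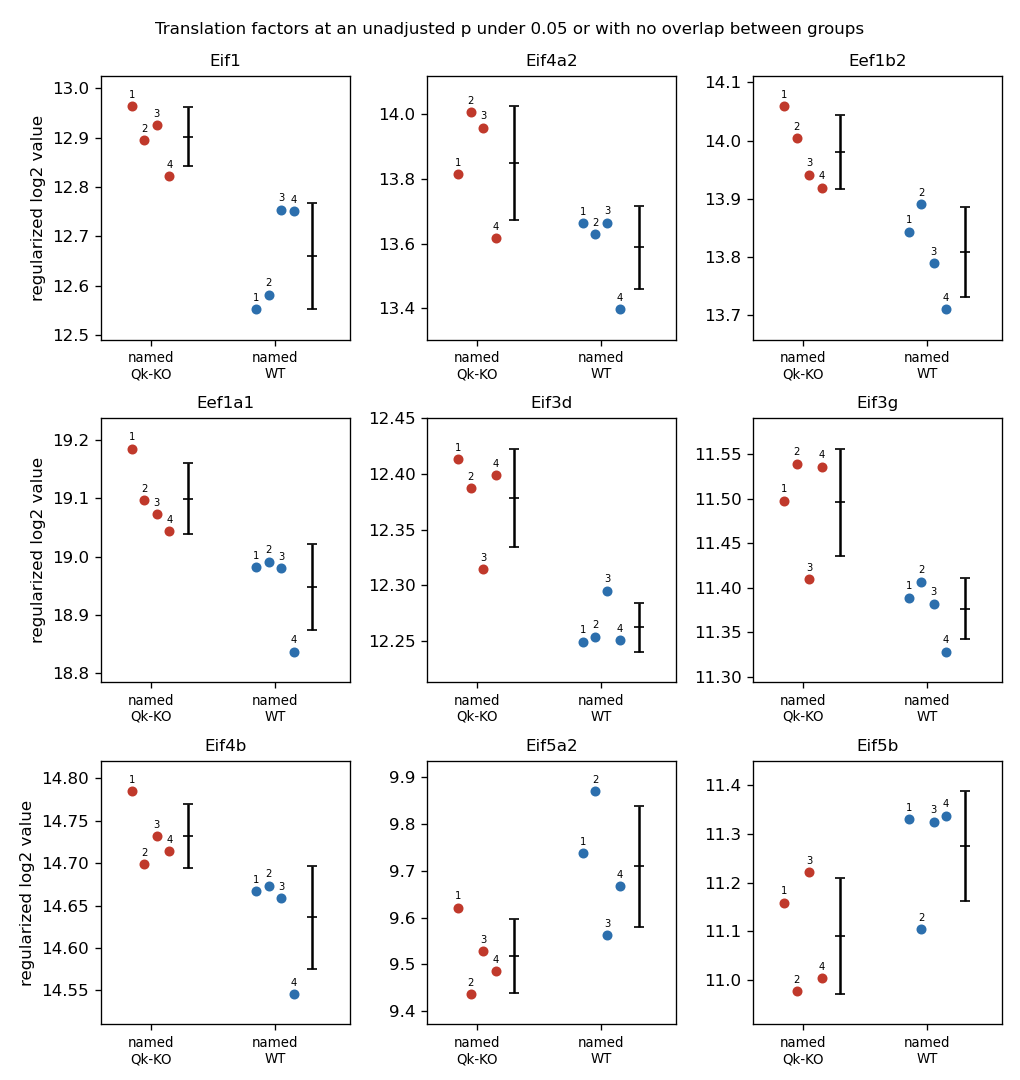
Values of the 8 genes at an unadjusted p under 0.05 and of Eif4b in each library (points, numbered by replicate; regularized log2), named Qk-KO left of named WT, with mean and SD (black, n = 4 each). Eif1, Eef1b2, Eef1a1, Eif3d, Eif3g and Eif4b show no overlap between the groups, and Eif5a2 and Eif5b lie lower in named Qk-KO with overlap; the difference of Eef1a1 turned to -0.058 after quantile normalization.

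Eef1a2 followed the libraries numbered 4. It was at 5.64, 4.82, 5.03 and 7.595 in named Qk-KO 1 to 4 and at 5.19, 5.85, 6.21 and 7.65 in named WT 1 to 4, so that the highest value of each group was its library 4. The mean over 7 neuron markers was also highest there, at 6.32 in named Qk-KO 4 and 6.53 in named WT 4, with 5.27 to 5.52 in the other named Qk-KO and 5.88 to 6.01 in the other named WT libraries. All 7 neuron markers had reads, and library 4 was the highest of its group for 5 of them in named Qk-KO and for 4 in named WT. Means over 6 astrocyte markers were highest there as well, at 11.62 in named Qk-KO 4 and 11.76 in named WT 4, as were those of the oligodendrocyte markers above. The part of RNA from these cells in the Eef1a2 values was not tested. The difference between the groups, -0.46, had a 95% interval of -2.07 to 1.15 (limma adjusted p = 0.877).

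Of the eEF2 genes, Eef2 was at 17.38, 17.28, 17.30 and 17.24 in named Qk-KO 1 to 4 and at 17.28, 17.30, 17.26 and 17.17 in named WT 1 to 4, a difference of 0.047 (95% interval -0.069 to 0.16) that became -0.0060 after quantile normalization. Eef2k, for the kinase that inactivates eEF2, averaged 12.50 ± 0.028 in named Qk-KO and 12.41 ± 0.080 in named WT libraries (SD, n = 4 each), a difference of 0.097 (95% interval -0.022 to 0.22). The values overlapped because named WT 3 stood at 12.53. Eef2kmt, for the enzyme that methylates a lysine of eEF2, averaged 9.95 ± 0.12 in named Qk-KO and 9.90 ± 0.087 in named WT libraries (SD, n = 4 each).

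**Figure D5:**
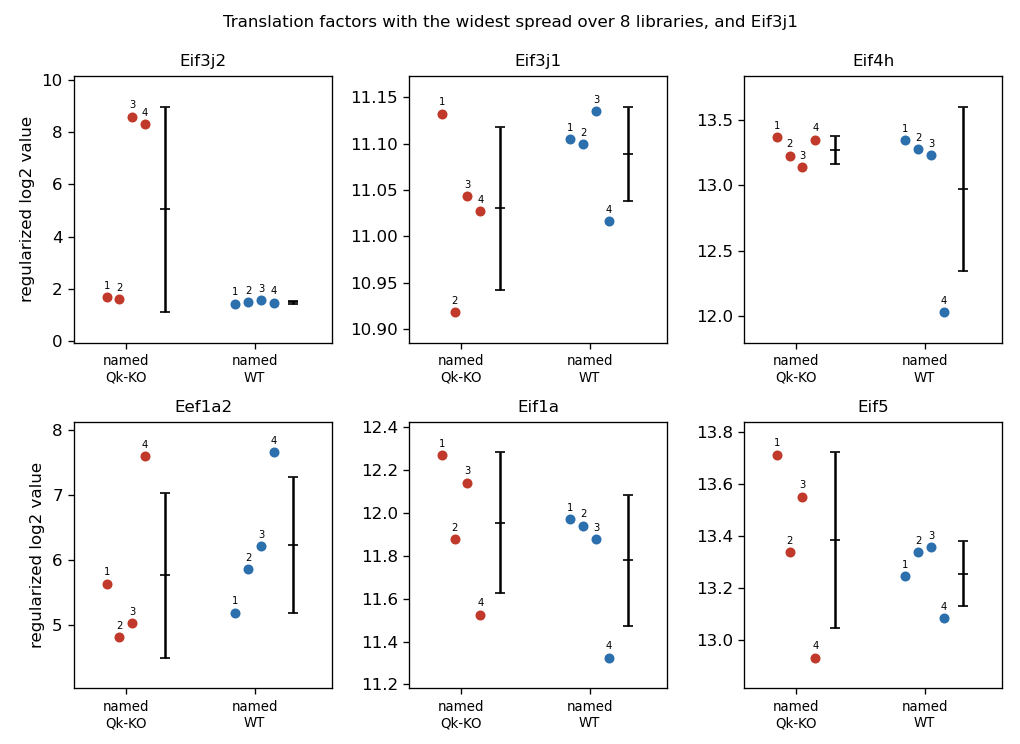
Values of the 5 factors with the largest SD over the 8 libraries, and of Eif3j1, in each library (points, numbered by replicate; regularized log2), named Qk-KO left of named WT, with mean and SD (black, n = 4 each). Eif3j2 is near 8 in named Qk-KO 3 and 4 only and Eif3j1 does not follow it; Eef1a2 is highest in the libraries numbered 4, and Eif4h is low in named WT 4.

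A single library stood out at each end of the set. Named Qk-KO 1 had the highest of the 8 values for 26 of the 57 genes, and named WT 4 had the lowest for 23. The matching shares over all genes were not counted, so these counts have no background. The median deviation of the 57 genes from their own means was 0.079 in named Qk-KO 1 and -0.076 in named WT 4, where all genes of at least 1 CPM had medians of 0.0089 and -0.0064. Named Qk-KO 1 also stood apart in the Y-linked helicase gene Ddx3y, at 9.96, with 11.32 to 11.79 in the other named Qk-KO and 11.08 to 11.58 in the named WT libraries. Of the Eif2s3 genes left out by name, the Y-linked Eif2s3y was also low there, at 8.42, with 9.97 to 10.69 in the other libraries. The X-linked Eif2s3x was high there, at 13.04, with 12.50 to 12.77 in the others. The part of these differences in the values of the factors was not tested. Across the 57 genes, those with higher levels per length had more positive differences (Spearman rho 0.44), where rho was 0.24 over 11789 protein-coding genes of at least 1 CPM; genes share these libraries and are not independent replicates.

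The grouping by genotype field gave other values. The median difference over the 57 genes was 0.0081 (field Qk-KO minus field WT), and 1 gene, Eef2kmt, had an unadjusted p under 0.05 by limma, with 2.67% of all genes tested. Eif1 was at -0.035, and Eef1b2 and Eef1a1 were at 0.013 and 0.0091. Within each field, 2 named Qk-KO libraries stand against 2 named WT libraries: the median of the 57 was 0.015 within the field Qk-KO and 0.092 within the field WT. Both named Qk-KO 1 and named WT 4 carry the field WT. The sign of the difference was the same in both fields for 32 of the 57. Eif1 was higher in named Qk-KO in both, by 0.19 within the field Qk-KO and by 0.29 within the field WT. Eef1b2 was higher by 0.12 within the field Qk-KO and 0.22 within the field WT, and Eif5b was lower in both, at -0.23 within the field Qk-KO and -0.14 within the field WT. The difference between fields was tested as an interaction by limma: 0 of the 57 passed at an adjusted p under 0.05, with 5 of all genes tested, and 3 had an unadjusted p under 0.05, with 11.2% of all genes tested.

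Genes of related steps and pathways gave the same count. Of 82 genes in 9 lists, 0 passed in limma (0.00444% of all genes tested) and 0 in the authors' deposited table (1.22% of genes with an adjusted p). At an unadjusted p under 0.05 by limma there was 1 higher, Rragd, and 1 lower, Rptor. Of all genes tested, 3.76% were higher and 4.5% lower at that threshold. Rragd, for a GTPase that brings mTORC1 to lysosomes, averaged 11.15 ± 0.076 in named Qk-KO and 10.95 ± 0.11 in named WT libraries (SD, n = 4 each; limma adjusted p = 0.494). Rptor, for the mTORC1 subunit raptor, averaged 12.85 ± 0.061 in named Qk-KO and 12.99 ± 0.043 in named WT libraries (SD, n = 4 each; limma adjusted p = 0.520). Mknk2, for a kinase that phosphorylates eIF4E, had the largest difference of its list, 0.33 (95% interval -0.32 to 0.98), with 13.19 to 13.62 in named Qk-KO libraries, against 12.13 in named WT 4 and 13.25 to 13.40 in its 3 companions.

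Of the 4 eIF2 alpha kinase genes, 0 passed, and the largest difference was 0.10 (95% interval -0.10 to 0.30), for Eif2ak4, the sensor of uncharged tRNA. Of the 18 genes of the integrated stress response, 12 had a positive difference, with 48.8% of all genes tested positive, and 0 passed. Its central factor gene Atf4 averaged 13.76 ± 0.20 in named Qk-KO and 13.57 ± 0.13 in named WT libraries (SD, n = 4 each; limma adjusted p = 0.662). The largest differences of that list were those of Vldlr, -0.69 (95% interval -1.80 to 0.42), and Chac1, -0.33 (95% interval -1.24 to 0.59). Of the 9 genes that make diphthamide on eEF2 or hypusine on eIF5A, 6 had a positive difference, beside the same 48.8%. The largest differences were those of Dnajc24 at -0.21 (95% interval -0.50 to 0.076) and Dph1 at 0.18 (95% interval -0.041 to 0.40).

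In the other lists, too, 0 genes passed. The largest differences were -0.22 for Mtif3 among 9 mitochondrial translation factors, -0.23 for Ddx3y and -0.20 for Dhx29 among 6 scanning and reinitiation helpers, 0.18 for Etf1 among 5 termination and rescue factors, -0.15 for Iars among 10 multi-synthetase genes and -0.084 for Paip2b among 5 poly(A)-binding proteins and partners. The interval of each included 0.

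The sequence before the start site is shown for the 8 factors at an unadjusted p under 0.05 and for Eif4b, to set them side by side. Each line gives the 120 bases before and the first 20 bases after the RefSeq start (GRCm38.p6), and capitals mark CCGGAAGT, a site of ETS factors, or CACGTG, the E-box, on either strand.
Eif1, chr11:100319829-100319968, plus strand: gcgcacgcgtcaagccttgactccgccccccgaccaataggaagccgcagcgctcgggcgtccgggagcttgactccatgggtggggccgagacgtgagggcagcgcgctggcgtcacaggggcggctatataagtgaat
Eef1a1, chr9:78481705-78481844, minus strand: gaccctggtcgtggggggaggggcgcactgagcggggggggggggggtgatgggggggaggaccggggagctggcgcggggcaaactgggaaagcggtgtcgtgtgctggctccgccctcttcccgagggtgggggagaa
Eef1b2, chr1:63176711-63176850, plus strand: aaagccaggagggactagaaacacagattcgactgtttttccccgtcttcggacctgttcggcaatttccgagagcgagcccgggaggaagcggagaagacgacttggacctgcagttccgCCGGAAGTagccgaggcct
Eif3d, chr15:77970805-77970944, minus strand: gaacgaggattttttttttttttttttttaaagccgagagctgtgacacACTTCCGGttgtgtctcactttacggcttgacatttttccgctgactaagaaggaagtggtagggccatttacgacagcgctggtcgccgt
Eif3g, chr9:20898571-20898710, minus strand: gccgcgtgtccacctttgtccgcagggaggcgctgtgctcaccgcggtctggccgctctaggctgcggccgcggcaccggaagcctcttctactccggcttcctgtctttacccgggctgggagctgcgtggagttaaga
Eif4a2, chr16:23107348-23107487, plus strand: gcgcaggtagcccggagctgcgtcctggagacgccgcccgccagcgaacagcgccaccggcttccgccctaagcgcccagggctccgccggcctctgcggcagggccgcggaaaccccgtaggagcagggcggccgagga
Eif4b, chr15:102073653-102073792, plus strand: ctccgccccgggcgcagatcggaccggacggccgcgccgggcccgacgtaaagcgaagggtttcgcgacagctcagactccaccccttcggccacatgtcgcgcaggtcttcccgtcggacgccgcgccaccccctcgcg
Eif5a2, chr3:28781157-28781296, plus strand: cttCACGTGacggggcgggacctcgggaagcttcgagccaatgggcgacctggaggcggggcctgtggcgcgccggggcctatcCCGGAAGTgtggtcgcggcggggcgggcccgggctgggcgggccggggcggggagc
Eif5b, chr1:37997890-37998029, plus strand: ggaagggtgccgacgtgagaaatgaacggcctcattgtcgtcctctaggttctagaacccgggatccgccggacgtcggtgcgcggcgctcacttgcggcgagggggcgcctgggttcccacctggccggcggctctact
In this stretch Eef1b2 and Eif3d hold the ETS motif, Eif5a2 holds both motifs, and the other 6 hold neither. Over windows of 300 bases, RefSeq gave 58 for 44 of the 57 genes. The ETS motif was in 10 of the 58 (17.2%), with 3.89% of all 32851 windows and 7.96% of those of protein-coding genes of at least 1 CPM. The E-box was in 14 (24.1%), with 7.15% of all windows and 9.8% of those of protein-coding genes of at least 1 CPM. TGACGTCA, the cyclic AMP response element, was in 1 (1.72%), that of Eef2, with 1.79% of all windows. Genes with the ETS motif lay on both sides of 0, with Eef1b2 and Eif3d higher and Eif5a2 lower in named Qk-KO, and a match of letters is a description, not a bound site.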

How the data were processed

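Total RNA of 8 libraries was read from 1 table deposited by the authors, of gene-level values. Per the submitters' processing notes, the build was mm10 and the tools were DESeq2, StringTie, HISAT2 and FastQC; versions are not given. The deposited library columns are on a log2 scale and were read from their values as regularized log2 values, which shrink low genes towards their mean. The deposited baseMean column, named so per the file headers, is the authors' mean normalized signal, and 56.8 of it equals 1 CPM. The authors' table also holds a log2 fold change, its Wald statistic (a score) and p-values.

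The deposited table holds no counts per library, so the edgeR test first planned could not be used. Limma 3.58.1 (R 4.3.3; trend, robust, two-sided, Benjamini-Hochberg) was fitted on 22546 genes that reached a normalized value of 1 in 4 or more libraries, named Qk-KO against named WT. Depth enters only through rough totals recovered from genes with reads in 1 library. Positions and exon lengths come from GENCODE vM21 (GRCm38), matched by identifier for 46488 of 46983 genes and all 57 factors, of which 33 had the same version. No source used here names the authors' annotation release. The members and lists were chosen with earlier results of these data known.

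Named are all factors at an unadjusted p under 0.05 or without overlap; in each class the 2 with the highest signal, the one with the largest difference and the one with the largest SD; factors whose sequence is printed, with paralogs; and list genes called or leading their list. Some further members are given with values chosen after these were seen. Exons of 24 factors overlap another gene, 8 of them by over 10% with a single gene. These are Eif4ebp3 (67.3%, AC115631.1 on the same strand), Eif3d, Eif3j1, Eif1ad, Eif1b, Eif4e3, Eif5b and Eef2kmt, whose values are therefore uncertain. Eif4a2 overlaps several snoRNA genes on its strand, and Rfc4, by at most 3.63% each. Its overlaps were not added up, so its value is uncertain too. Alternatives were other scalings, filters and groupings, a replicate block and leaving out libraries. Replicate numbers were not used as pairs in the main fit: the libraries numbered 1 correlated at 0.046, under the 0.1 asked of every pair.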

Additional observations from a re-analysis of the deposited data

Results flagged for a closer look

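Of 60 sets of 4 libraries checked (30 factors in 2 groups), 11 held a library that stood apart from the other 3 by more of the range than Dixon's critical value for 4; chance gives about 1 in 20 for a set chosen blindly, which is no measure for this count, since some of the factors were named for their spread and all share the 8 libraries. Named WT 4 was the low library for Eif4h at 12.03, Eif1a at 11.32, Eif4a2 at 13.40, Eif4b at 14.55 and Eef1a1 at 18.84 (regularized log2). Named Qk-KO 1 was the high library for Eif4a1 at 14.79 and Eif5a at 13.03. Named WT 3 was high for Eef2k at 12.53 and Eif3d at 12.29, named WT 1 was low for Eif2b4 at 10.03, and named WT 2 was low for Eif5b at 11.10.

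Processed pseudogenes, which the choice of members left out, had signal as well. Eif4a-ps4 had a mean normalized signal of 2058 over the 8 libraries. The others were low, at 6.26 for Eif3s6-ps1, 3.79 for Eif1-ps1 and 2.05 for Eif5al3-ps. Whether this signal comes from reads of Eif4a1, Eif3e, Eif1 and Eif5a was not tested.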

How the results depend on the processing

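In all 18 alternatives 0 factors passed, and 0 of the 82 list genes passed in the 2 run for them (genotype field and the authors' deposited table). With the replicate block, 8 factors were at an unadjusted p under 0.05, of which 5 were among the 8 without it. The share of all genes was 13% with the block and 8.26% without it. In deviations from the group means, named Qk-KO and named WT libraries of the same number correlated at 0.046, 0.15, 0.27 and 0.46 for numbers 1 to 4. Number 1 was under the 0.1 asked of every pair, and named Qk-KO 1 correlated most with named WT 3, at 0.13. The main fit therefore leaves the numbers out, and whether they mark a shared origin is not known. In place of 8 factors at an unadjusted p under 0.05, there were 1 by genotype field (2.67% of all genes), 3 without trend and robust fitting (7.74%), 5 with median-centred libraries (7.77%), 4 after quantile normalization (8.17%) and 5 without the 2 libraries numbered 4 (13.5%; chosen after seeing the data). Leaving out 1 library gave 2 to 8, with 2 without named WT 4 (6.4% of all genes), 4 without named WT 1 (5.91%) and 5 without named Qk-KO 2 (6.99%). The median of 0.041 became 0.12 with median-centred libraries, where that of all genes was 0.072, and 0.013 to 0.067 leaving out 1 library.

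Signs turned as follows; apart from median-centring, the cause was not tested. Quantile normalization gave -0.058 for Eef1a1, -0.0060 for Eef2, -0.0061 for Eif3c and -0.019 for Eif4a1. Median-centring adds 0.077 to every difference, which by itself gave 0.012 for Eif1b, 0.058 for Eif2a, 0.0088 for Eif2b4, 0.065 for Eif3a, 0.018 for Eif3j1 and 0.019 for Eif4e. The genotype field gave 0.24 for Eef1a2, -0.0027 for Eef1g, -0.013 for Eef2, -0.035 for Eif1, -0.12 for Eif1a, 0.015 for Eif1b, 0.049 for Eif2a, 0.17 for Eif2b4, -0.081 for Eif2s2, -0.024 for Eif3c, -0.051 for Eif3j2, -0.024 for Eif4a1 and -0.16 for Eif5. Without the libraries numbered 4, Eef2kmt was -0.0027, Eif4h -0.041 and Eif5a -0.0091. Leaving out 1 library, the ranges that crossed 0 were -1.07 to 0.015 for Eef1a2, -0.067 to 0.014 for Eif2a, -0.014 to 0.091 for Eif2s2, -0.047 to 0.035 for Eif3a, -0.027 to 0.035 for Eif3c, -0.0056 to 0.063 for Eif4a1, -0.014 to 0.42 for Eif4h and -0.033 to 0.20 for Eif5a.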
